A study of Mus musculus with 564 samples.

Results

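Interleukin-4 (IL-4) acts on macrophages through receptor chains that have no kinase of their own. The IL-4 receptor alpha chain, encoded by Il4ra, pairs with the common gamma chain or with the IL-13 receptor alpha 1 chain, encoded by Il13ra1, and Janus kinases (JAKs) bound to these chains phosphorylate the transcription factor STAT6. The genes of the receptor, of the 4 JAKs and of 2 PIM kinases, survival kinases whose genes cytokines can induce, were followed here through H3K27ac, acetylation of lysine 27 of histone H3, which marks promoters and enhancers in use. The values come from cis-regulatory elements (CREs), regions at which ChIP-seq reads were counted. Every CRE whose centre lay within 25 kb of a curated RefSeq start of Il4ra, Il13ra1, Jak1, Jak2, Jak3, Tyk2, Pim1 or Pim3 was taken, and this gave 43 of 59190 CREs. There were 6 at Il4ra, 5 at Il13ra1, 3 at Jak1, 6 at Jak2, 5 at Jak3, 8 at Tyk2, 6 at Pim1 and 4 at Pim3. A CRE is named by its gene and by the distance of its centre from the start in kb, with a minus sign for upstream.

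The cells were bone marrow-derived macrophages (BMDMs) grown from the marrow of wild type male C57/BL6 mice aged 6 to 8 weeks. Pre-treatment for 1 h was with DMSO, the vehicle, or with a clinical kinase inhibitor (CKI), of which there were 58. The cells then got no stimulus (UT) or 10 ng/mL of IL-4 or of lipopolysaccharide (LPS), the bacterial ligand of TLR4, for 30 min, 1 h, 2 h or 4 h. Of the 564 libraries, 18 were from DMSO cells, with 2 in each of the 9 conditions, and most CKIs had 1 library per condition. The JAK inhibitors were BMS911543, Filgotinib, Momelotinib, Pacritinib, Ruxolitinib and Tofacitinib (58 libraries) and the PIM inhibitors AZD1208 and SGI1776 (22 libraries). Each CKI was used at its own concentration, chosen for its intended target, so the values of different CKIs stand side by side and do not rank the compounds. Nothing in the labels tells whether replicates were separate cultures, so a p-value measures the spread between these samples, which may be technical. The labels of the UT samples name 4 h without stimulus and their titles time 0, and they served as the start of both courses.

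Values were normalized read counts. Their total was 4070000 to 12400000 per library and 5920000 to 6870000 in the DMSO libraries. The number of reads behind it, estimated from the spacing of the values, was 2350000 to 5410000 in the 16 DMSO libraries that allowed an estimate, 632000 to 5870000 with JAK inhibitors, 915000 to 4940000 with PIM inhibitors and 346000 to 6840000 with the other CKIs. For the contrast of a library, CREs were ranked once by their mean over all libraries. Its median over the highest 10% of these CREs was divided by its median over the lowest 10%. The contrast was 53.0 to 134 in DMSO, 4.51 to 51 in JAK inhibitor and 5.34 to 56.6 in PIM inhibitor libraries. It did not overlap between DMSO and the JAK inhibitors. Of 8 macrophage markers, 5 had a CRE within 1 kb of their start, with unstimulated means of 555 to 2082, at or above the 95.8th percentile of all start-site CREs. Of the 19 markers of other cells, 4 had one: the B cell gene Ebf1 had a mean of 0.500, the dendritic cell gene Flt3 7, and the fibroblast genes Col1a1 and Pdgfrb 3.50 and 6.50. No marker of T cells or of neutrophils and their progenitors had a CRE there. In such bulk samples, fewer acetylated cells and less acetylation per cell cannot be told apart.

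Sequences from CREs with large responses are shown first, so that their letters can be read beside the values below. They were read from the mm10 genome (GRCm38.p6, plus strand), and the windows were chosen after the values of their CREs had been seen. Capitals mark matches to letter patterns on either strand: TTCNNNGAA and TTCNNNNGAA, the palindromes that STAT factors bind, of which the wider form is the preference known for STAT6, TGANTCA for AP-1, and the NF-kB consensus. A pattern for interferon response elements, GAAANNGAAA, was searched too, and matches of different patterns may overlap. The first line is from Pim3 -7.2 kb (chr15:88853543-88856414, intergenic), the CRE with the largest IL-4 response, and the second and the third are from Jak2 -11.1 kb (chr19:29238851-29242610, intergenic), which rose after both stimuli. The 10 capital letters of the first line are the same as those of the second. The fourth line is from Jak2 +0.8 kb, the CRE over the Jak2 start, where an NF-kB match and a STAT match lie 2 bases apart. The fifth and the sixth are from Tyk2 -4.1 kb (chr9:21132479-21138208, intergenic) and the seventh is from Il13ra1 -4.4 kb (chrX:36106870-36108503, intergenic), both of which rose after LPS.
Pim3 -7.2 kb, chr15:88855575-88855664, STAT: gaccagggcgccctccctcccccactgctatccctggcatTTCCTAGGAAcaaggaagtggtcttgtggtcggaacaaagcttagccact
Jak2 -11.1 kb, chr19:29238896-29238985, STAT: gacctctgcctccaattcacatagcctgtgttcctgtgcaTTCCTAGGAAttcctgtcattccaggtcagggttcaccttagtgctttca
Jak2 -11.1 kb, chr19:29239683-29239772, STAT and AP-1: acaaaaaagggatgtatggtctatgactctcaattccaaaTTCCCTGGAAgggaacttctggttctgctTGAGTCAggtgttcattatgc
Jak2 +0.8 kb, chr19:29252915-29253004, NF-kB and STAT: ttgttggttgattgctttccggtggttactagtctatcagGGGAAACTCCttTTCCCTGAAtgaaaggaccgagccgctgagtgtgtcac
Tyk2 -4.1 kb, chr9:21136048-21136137, NF-kB: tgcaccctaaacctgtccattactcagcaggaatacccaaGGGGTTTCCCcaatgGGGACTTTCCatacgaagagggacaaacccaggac
Tyk2 -4.1 kb, chr9:21136122-21136211, NF-kB: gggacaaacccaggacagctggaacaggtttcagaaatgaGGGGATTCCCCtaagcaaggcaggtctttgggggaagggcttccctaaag
Il13ra1 -4.4 kb, chrX:36107630-36107719, NF-kB: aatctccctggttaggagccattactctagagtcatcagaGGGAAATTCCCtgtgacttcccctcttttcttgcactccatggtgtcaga

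The printed windows show only a part of the matches. Over its full length, Pim3 -7.2 kb held 1 match each to TTCNNNNGAA, GAAANNGAAA and TGANTCA. Jak2 -11.1 kb held 5 matches to TTCNNNNGAA, 5 to TGANTCA, 1 to TTCNNNGAA and 1 to GAAANNGAAA. Jak2 +0.8 kb held 5 matches to TTCNNNGAA, 2 to TGANTCA and 2 to the NF-kB consensus. Tyk2 -4.1 kb held 6 matches to the NF-kB consensus, 0 of them in its central 1401 bases. It also held 3 to TTCNNNNGAA, 2 to TTCNNNGAA, 3 to TGANTCA and 1 to GAAANNGAAA. Il13ra1 -4.4 kb held 2 matches to the NF-kB consensus, 2 to TTCNNNNGAA and 1 to GAAANNGAAA. After IL-4, Tyk2 -4.1 kb was not called and Il13ra1 -4.4 kb was too low to be tested. For a comparison at equal length, only the central 1401 bases of each CRE were read. There, TTCNNNGAA was found in 15 of the 43 CREs (36.1% of all CREs), TTCNNNNGAA in 12 (33.1%), GAAANNGAAA in 12 (19.3%), TGANTCA in 16 (43.6%) and the NF-kB consensus in 9 (17.4%). Among the 9 CREs called after IL-4 (the call is defined below), TTCNNNGAA was in 3, TTCNNNNGAA in 4, GAAANNGAAA in 2, TGANTCA in 3 and the NF-kB consensus in 1. Among the 22 called after LPS, the same patterns were in 7, 6, 6, 9 and 5. The shares of all CREs are those just given. RefSeq promoters, 300 bases around each start, were matched for all 8 genes (9 promoters), and 1 of them held any of the patterns, an NF-kB match at Il4ra, where 4.51% of all promoters hold one. These matches describe the letters only.

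In DMSO cells, both stimuli raised acetylation at Jak2, LPS raised it at most CREs of Tyk2 and Pim1 and at 2 of 5 of Il13ra1, and IL-4 raised it at Pim3. Differences were tested with limma on log2(value + 5), with Benjamini-Hochberg adjustment over all CREs tested, and a CRE was called at an adjusted p under 0.01 with an absolute log2 difference from UT above 1 at 1 or more times. In the LPS course, 22 of the 40 CREs tested were called, 21 higher and 1 lower. Among all CREs, 53.5% were called, 29.0% higher and 24.6% lower, so the members stood near the background in the share called. In the IL-4 course, 9 of 37 were called, 8 higher and 1 lower, against a background of 24.7% called, 13.6% higher and 11.0% lower. With its sign, the largest log2 difference per CRE had a median of 1.21 over the members and 0.37 over all CREs after LPS. After IL-4 these medians were 0.43 and 0.21. Without the sign, the medians of the members and of all CREs were 1.23 and 1.19 after LPS, and 0.49 and 0.68 after IL-4. The LPS and IL-4 courses share the UT libraries and are therefore given side by side. The difference between the stimuli at matched times, which does not use them, was called at 25 of 40 CREs (58.4% of all CREs), 20 with more acetylation after LPS and 5 with more after IL-4.

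**Figure D1:**
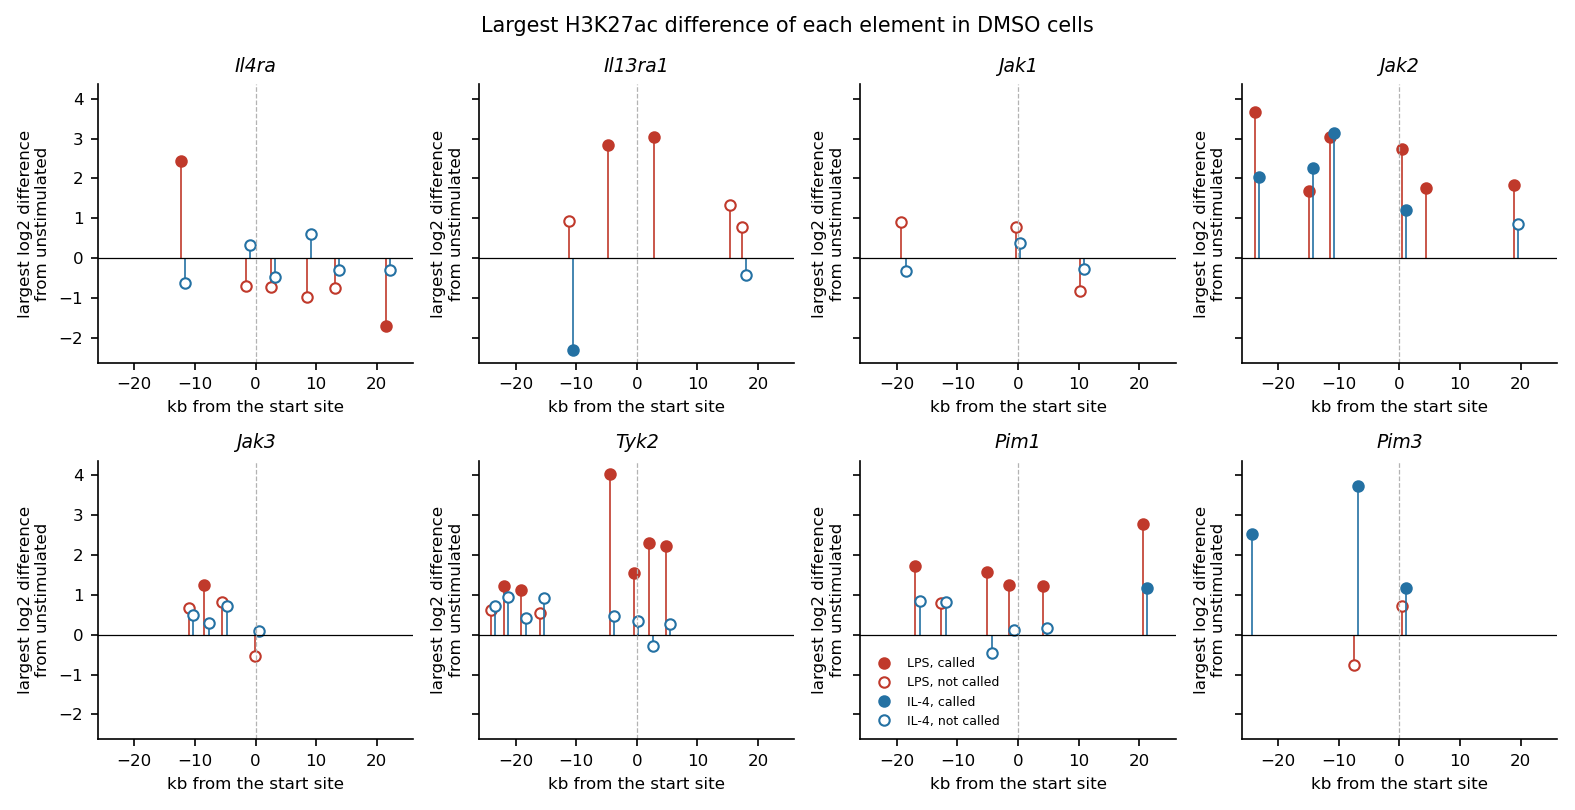
The panels plot, for each gene, the largest log2 difference from UT of each CRE (vertical axis, log2(value + 5) scale) against its distance from the start in kb, for LPS (red) and IL-4 (blue) in DMSO cells. Filled points were called and open points were not, and the colours are drawn slightly apart to keep them visible. All 6 Jak2 CREs are filled for LPS, and 3 Pim3 CREs are filled for IL-4, of which Pim3 -24.6 kb was not tested for LPS. Pim3 -24.6 kb and the Jak2 CREs with UT means below 10 were tested only because their stimulated libraries were high.

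Il4ra, the signalling chain shared by both forms of the IL-4 receptor, had its response at a distance from its start. At Il4ra -12.0 kb (chr7:125538622-125541838, intergenic), the DMSO replicates were at 170 and 151 in UT, 61 and 64 after 30 min of LPS, 180 and 191 after 1 h, 623 and 601 after 2 h, and 939 and 853 after 4 h. After IL-4 they were at 186 and 205, 162 and 176, 141 and 134, and 108 and 99 at the same times. The LPS libraries thus lay below UT at 30 min and above it from 1 h on, whereas the IL-4 libraries ended below UT. The log2 difference from UT was -1.29 ± 0.14 (SE) at 30 min of LPS, with an adjusted p of 1.84e-09 in limma, and 2.45 ± 0.14 at 4 h, and the adjusted p over the course was 9.44e-22. LPS exceeded IL-4 by 3.05 ± 0.14 at 4 h and was lower by a log2 difference of -1.57 at 30 min (adjusted p over the times in limma 1.66e-24).

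At Il4ra -1.2 kb, which covers the start, the same order appeared with a smaller range. The replicates were at 584 and 616 in UT, 373 and 364 after 30 min of LPS, and 925 and 920 after 4 h of LPS. With IL-4 they were highest after 1 h, at 787 and 717, and stood at 506 and 482 after 4 h. The largest log2 differences, -0.70 ± 0.10 after LPS and 0.32 ± 0.09 after IL-4, passed the adjusted p (1.61e-12 and 8.86e-07 in limma) but not the limit of size. Within the gene, Il4ra +21.9 kb was called lower after LPS, with a log2 difference of -1.69 ± 0.36 at 1 h (adjusted p 6.42e-04 in limma). The other 3 Il4ra CREs had largest log2 differences between -0.97 and -0.73 after LPS and were not called, and no Il4ra CRE was called after IL-4.

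Il13ra1 encodes the chain that lets the receptor respond to IL-13 as well as to IL-4. Before stimulation, 3 of its 5 CREs were at 5 to 13, and of these the 2 nearest to the start were called higher after LPS. At Il13ra1 -4.4 kb, the replicates were at 12 and 13 in UT, 86 and 103 after 30 min of LPS, 76 and 87 after 1 h, 124 and 116 after 2 h, and 87 and 77 after 4 h. All 8 LPS libraries lay above both UT libraries, and the largest log2 difference was 2.84 ± 0.23 at 2 h (adjusted p 1.48e-12 in limma). After IL-4 the same CRE was at 15 and 12 at 30 min and at 2 and 4 at 4 h, too low to be tested in that course. Il13ra1 +3.2 kb, the CRE nearest to the start and inside the first part of the gene, behaved in the same order, from 9 and 8 in UT to 118 and 94 after 2 h of LPS and 2 and 6 after 4 h of IL-4. Its log2 difference was 3.03 ± 0.27 at 2 h of LPS (adjusted p 2.12e-11 in limma). With 9 and 8 in UT, it passed the filter on low values only through its LPS libraries, so this call follows in part from the filter.

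Il13ra1 -10.8 kb (chrX:36100283-36102303) was the 1 member called lower after IL-4. It was at 110 and 122 in UT, 58 and 28 after 30 min of IL-4, 19 and 20 after 1 h, 33 and 28 after 2 h, and 37 and 46 after 4 h. No IL-4 library reached the UT values, and the log2 difference was -2.30 ± 0.27 at 1 h (adjusted p 1.59e-08 in limma). After LPS it dipped to 56 and 64 at 30 min and stood at 203 and 253 at 2 h, a log2 difference of 0.94 that did not pass the limit of size. With quantile normalization it was called in the LPS course, with a 2 h value of 1.00. With median ratio rescaling it was called too, but the 2 h value was 0.89, so the limit of size was passed at another time. The 2 h value was 1.09 without LPS replicate 1 at 2 h and 1.01 without UT replicate 2, both above the limit. LPS minus IL-4 had largest log2 values of 2.71 at Il13ra1 -10.8 kb and 1.05 at Il13ra1 +17.7 kb, both called. It was also called at the other 3 Il13ra1 CREs, with 3.64 at Il13ra1 -4.4 kb and 3.54 at Il13ra1 +3.2 kb, but these passed the filter on low values only through their LPS libraries.

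**Figure D2:**
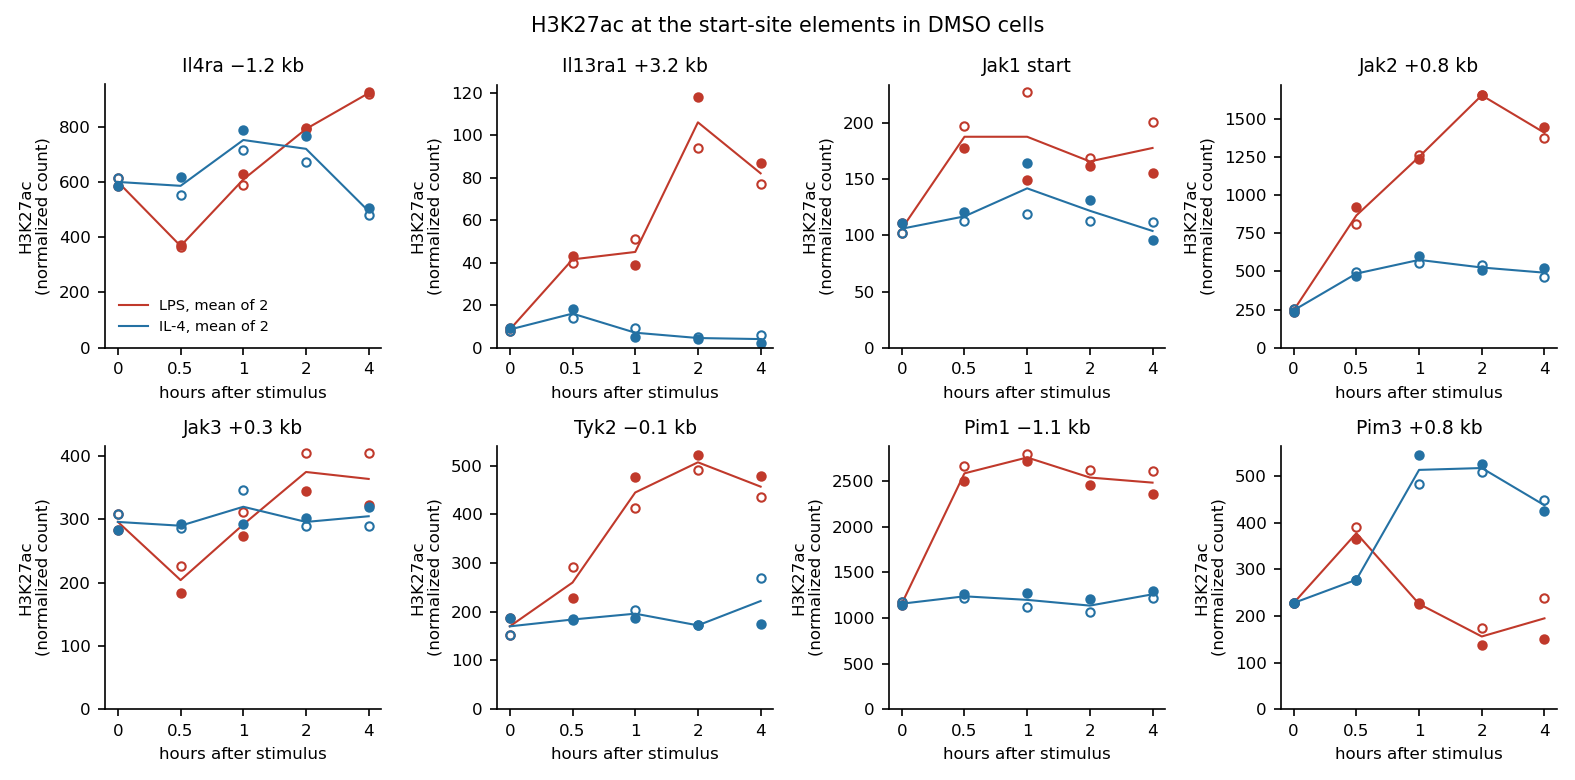
The panels plot the normalized read count of the CRE nearest to each start (vertical axis, from 0) in DMSO cells against hours after the stimulus (evenly spaced, with UT at 0), for LPS (red) and IL-4 (blue). Filled and open points are replicates 1 and 2, and lines join the means of 2. Jak2 +0.8 kb rises after both stimuli, Pim1 -1.1 kb and Tyk2 -0.1 kb after LPS, and Pim3 +0.8 kb after IL-4.

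Jak1, which binds the Il4ra chain and many other cytokine receptors, had no CRE called after either stimulus with all libraries in the fit. The CRE over its start, called Jak1 start (chr4:101264404-101266205), was at 111 and 102 in UT, 178 and 198 after 30 min of LPS, and 156 and 201 after 4 h, and at 121 and 113 and 96 and 112 at the same times of IL-4. The LPS libraries lay above UT, by a log2 difference of up to 0.79 ± 0.19 (adjusted p 0.00122 in limma), which was below the limit of size. The replicates at 1 h of LPS were at 149 and 228, and without the lower of them the CRE was called (adjusted p 2.15e-04 in limma).

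Jak2, the kinase of the interferon gamma, GM-CSF and IL-3 receptors, had CREs called after both stimuli. All 6 of its CREs were called higher after LPS and 4 of the 5 tested after IL-4. These counts follow in part from the filter on low values, which all but Jak2 +0.8 kb and Jak2 -11.1 kb passed only through stimulated libraries. Jak2 +0.8 kb (chr19:29250471-29254786), over the start, was at 235 and 255 in UT. After LPS it was at 922 and 814 at 30 min, 1239 and 1267 at 1 h, 1657 and 1657 at 2 h, and 1446 and 1376 at 4 h. After IL-4 it was at 473 and 499, 599 and 553, 511 and 540, and 521 and 464. The UT, IL-4 and LPS libraries formed 3 ranges that did not overlap. The log2 difference from UT was 2.73 ± 0.09 at 2 h of LPS (adjusted p 6.53e-23 in limma) and 1.22 ± 0.10 at 1 h of IL-4 (2.23e-14), and LPS exceeded IL-4 by 1.65 ± 0.09 at 2 h (1.75e-24).

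Upstream, at Jak2 -11.1 kb, the stimuli could not be told apart. The replicates were at 45 and 47 in UT, and at 307 and 450, 415 and 412, 351 and 343, and 332 and 356 after 30 min, 1 h, 2 h and 4 h of LPS. The IL-4 values at the same times were 435 and 447, 297 and 417, 310 and 325, and 344 and 394. Every stimulated library was far above UT, and the LPS and IL-4 ranges overlapped at each time except 2 h. The log2 difference from UT reached 3.04 ± 0.16 after LPS (adjusted p 9.17e-19 in limma) and 3.13 ± 0.13 after IL-4 (1.03e-25). LPS minus IL-4 was -0.24, 0.23, 0.13 and -0.10 at the 4 times, each ± 0.15, with an adjusted p of 0.222 over the times in limma. The test thus found no difference, with errors of this size.

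Further upstream, Jak2 -23.5 kb was at 4 and 4 in UT, 98 and 122 after 4 h of LPS and 29 and 35 after 4 h of IL-4. The log2 differences were 3.67 ± 0.30 and 2.03 ± 0.34 (adjusted p 3.87e-13 and 1.29e-05 in limma), and LPS exceeded IL-4 by up to 1.72. Jak2 -14.6 kb was at 6 and 10 in UT, 27 and 26 after 4 h of LPS and 42 and 75 after 4 h of IL-4, with largest log2 differences of 1.69 and 2.26. The intronic Jak2 +4.8 kb and Jak2 +19.2 kb were called after LPS, with largest log2 differences of 1.77 and 1.83. Like Jak2 -23.5 kb and Jak2 -14.6 kb, they had UT means below 10. All of these passed the filter on low values only through stimulated libraries, so their calls follow in part from the filter. The 4 Jak2 CREs called after IL-4 therefore were the 3 upstream CREs and the one over the start.

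Jak3, the kinase of the common gamma chain, differed little. Jak3 +0.3 kb, over the start, was at 284 and 309 in UT, 183 and 226 after 30 min of LPS and 322 and 405 after 4 h, and between 287 and 347 in all 8 IL-4 libraries. Its log2 difference was -0.53 ± 0.15 at 30 min of LPS and was not called. Jak3 -8.1 kb was called, from 55 and 50 in UT to 133 and 128 after 4 h of LPS, a log2 difference of 1.24 ± 0.22 (adjusted p 2.93e-05 in limma). It lies in an intron and is nearest to the start of the neighbouring gene Unc13a, as are 4 of the 5 CREs counted for Jak3. No Jak3 CRE was called after IL-4, at which their largest log2 differences were 0.10 to 0.72.

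Tyk2, the kinase of the interferon alpha/beta and IL-12 receptors and of the Il13ra1 chain, held the largest LPS response of the members. Tyk2 -4.1 kb was at 97 and 86 in UT, 993 and 1081 after 30 min of LPS, 1110 and 1035 after 1 h, 1653 and 1512 after 2 h, and 1281 and 1082 after 4 h. The IL-4 libraries stood at 71 to 144. Every LPS library was far above every other DMSO library. The log2 difference was 4.04 ± 0.11 at 2 h of LPS (adjusted p 5.94e-26 in limma), that of IL-4 was at most 0.47 and not called, and LPS exceeded IL-4 by 3.70 ± 0.14 (4.79e-33). Tyk2 -0.1 kb, over the start, rose more slowly, from 188 and 152 in UT to 229 and 292 after 30 min, 477 and 413 after 1 h and 522 and 492 after 2 h of LPS, a log2 difference of 1.56 ± 0.14 (adjusted p 3.56e-12 in limma). Within the gene, Tyk2 +2.3 kb and Tyk2 +5.2 kb were called with largest log2 differences of 2.31 and 2.22, both at 2 h of LPS. Of 8 Tyk2 CREs, 6 were called higher after LPS and 0 after IL-4, and 4 of the 8 lie nearest to the start of the neighbouring gene Cdc37.

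**Figure D3:**
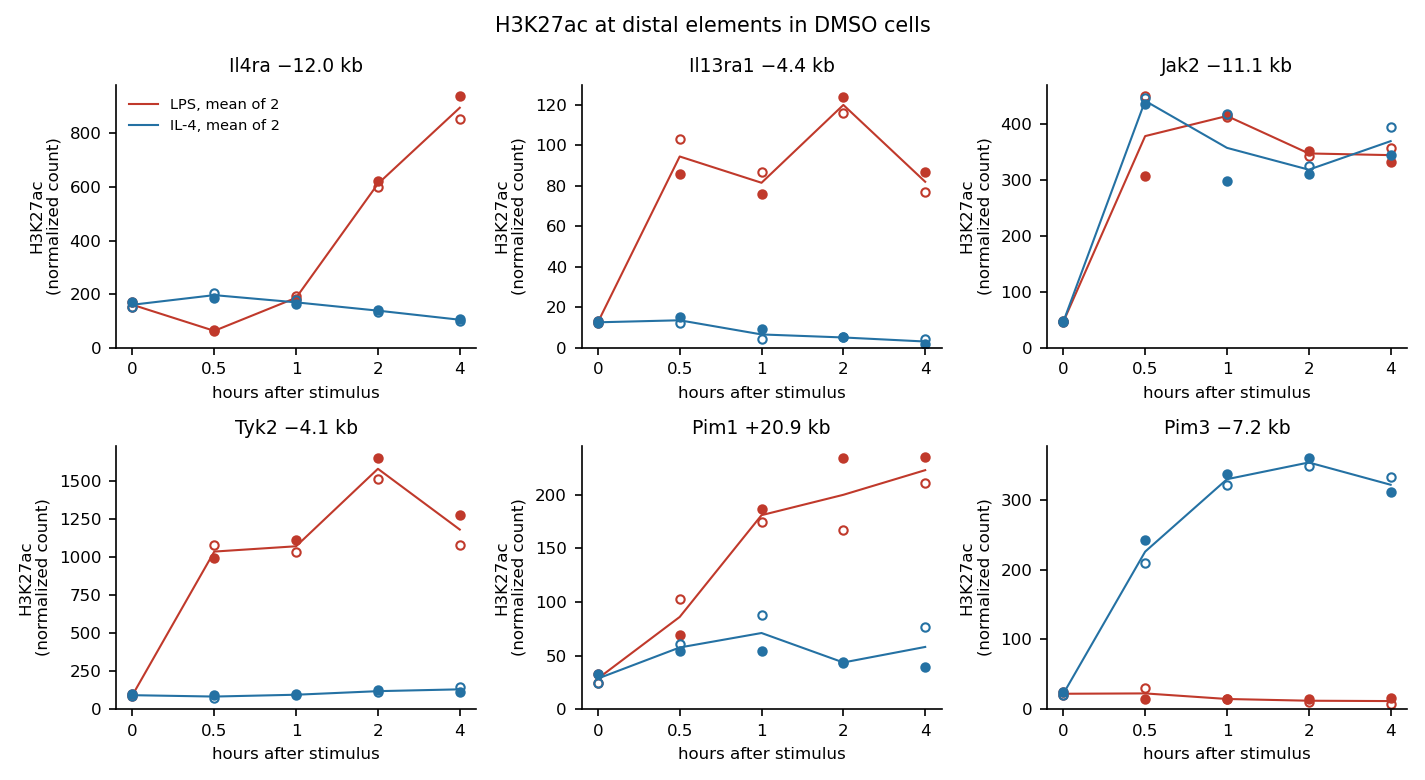
The panels plot the normalized read count of 6 CREs away from the starts (vertical axis, from 0) in DMSO cells against hours after the stimulus (evenly spaced, with UT at 0), for LPS (red) and IL-4 (blue). Filled and open points are replicates 1 and 2, and lines join the means of 2. The LPS and IL-4 lines run together at Jak2 -11.1 kb, only LPS rises at Tyk2 -4.1 kb and Il13ra1 -4.4 kb, and only IL-4 rises at Pim3 -7.2 kb.

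The PIM kinases are serine/threonine kinases that are active as soon as they are made, so that their genes set much of their activity. Pim1 and Pim3 went opposite ways between the stimuli. Pim1 -1.1 kb (chr17:29488283-29495668), which spans both annotated starts, was at 1140 and 1172 in UT, 2503 and 2670 after 30 min of LPS, 2720 and 2799 after 1 h, 2463 and 2618 after 2 h, and 2358 and 2609 after 4 h. With IL-4 it stayed between 1061 and 1296 in all 8 libraries, a range that includes UT. The log2 difference was 1.25 ± 0.07 at 1 h of LPS (adjusted p 2.22e-17 in limma) and at most 0.12 after IL-4 (adjusted p 0.304). LPS exceeded IL-4 by 1.16 ± 0.07 at 2 h (2.55e-25). With quantile normalization, the log2 values of LPS against UT and of LPS against IL-4 were 0.95 and 0.88, below the limit of size.

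Pim1 +20.9 kb (chr17:29512573-29515422), downstream of the gene, was at 33 and 24 in UT, 187 and 175 after 1 h of LPS, and 235 and 211 after 4 h, and at 54 and 88 after 1 h of IL-4 and 39 and 77 after 4 h. Its log2 differences were 2.78 ± 0.21 after LPS (adjusted p 5.16e-14 in limma) and 1.16 ± 0.27 after IL-4 (0.00273). The IL-4 call was lost without replicate 2 at 1 h (log2 difference 0.83, limma adjusted p 0.0193), without UT replicate 2 (0.96, 0.0748) and with a pseudocount of 20 (0.89, below the limit of size). Of 6 Pim1 CREs, 5 were called higher after LPS, among them Pim1 -16.6 kb (1.72), Pim1 -4.7 kb (1.58) and Pim1 +4.4 kb (1.21), with the largest log2 difference in brackets.

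Pim3 -7.2 kb, from which a window is printed above, had the largest IL-4 response of the members. It was at 24 and 20 in UT, 242 and 209 after 30 min of IL-4, 338 and 322 after 1 h, 360 and 349 after 2 h, and 312 and 333 after 4 h. After LPS it was at 15 and 30, 15 and 14, 14 and 10, and 16 and 7. Every IL-4 library was far above every other DMSO library. The log2 difference from UT was 3.74 ± 0.14 at 2 h of IL-4 (adjusted p 2.04e-28 in limma) and -0.76 ± 0.38 at 4 h of LPS (adjusted p over the course 0.192), and LPS minus IL-4 was -4.41 ± 0.26 at 2 h (3.13e-26).

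Pim3 +0.8 kb (chr15:88861098-88864807), over the start, moved early with LPS and late with IL-4. It was at 227 and 228 in UT, 366 and 391 after 30 min of LPS, and 138 and 174 after 2 h of LPS. With IL-4 it was at 278 and 278 after 30 min, 545 and 484 after 1 h, 526 and 510 after 2 h and 426 and 449 after 4 h. The IL-4 difference was called, with a log2 of 1.17 ± 0.11 at 2 h (adjusted p 4.25e-15 in limma). The LPS course, at 0.72 ± 0.17 at 30 min and -0.54 at 2 h, passed the adjusted p (1.01e-06) but not the limit of size. Pim3 -24.6 kb, nearest to the start of Creld2, was at 6 and 6 in UT, 57 and 59 after 2 h of IL-4 and 6 and 15 after 2 h of LPS, and was called with a log2 difference of 2.52 ± 0.29 (adjusted p 7.59e-11 in limma). It passed the filter on low values only through its IL-4 libraries, so this call follows in part from the filter. LPS minus IL-4 was called lower at all 3 Pim3 CREs tested, with the same limit at Pim3 -24.6 kb.

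Other genes of the pathway were taken from a fixed list and read at the CRE within 1 kb of their start. Of 13 receptor chains tested, 2 were called higher and 2 lower after LPS: Il2rg, the common gamma chain, with a log2 difference of 1.86, Csf3r with 1.35, Ifngr1 with -1.06 and Il6ra with -1.83. None of the 13 was called after IL-4. Il2rg was at a mean of 75.0 in UT, 286 after 30 min of LPS and 68.5 after 30 min of IL-4, so that it was high only in the LPS libraries. Of 10 phosphatases and inhibitors of JAK signalling, 4 were called higher after each stimulus: Ptpn2 (1.17), Ptpn11 (1.32), Socs1 (2.45) and Socs3 (2.37) after LPS, and Ptpn2 (1.00), Socs1 (2.25), Socs2 (2.99) and Socs3 (1.07) after IL-4, and Ptpn6 (-1.05) was lower after LPS. Of the STAT genes, Stat2 (1.64) and Stat5a (2.42) were called higher and Stat5b (-1.07) and Stat6 (-1.27) lower after LPS, and none of these 4 was called after IL-4. Of the adaptors, Sos1 (1.40) was higher after LPS among the 5 tested and none of 6 was called after IL-4, and Pim2, the remaining PIM kinase, was not called. Over all start-site CREs tested, 13.2% were called higher and 15.1% lower after LPS, and 4.39% and 1.79% after IL-4.

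The start-site CREs most like those of Il4ra and Pim1 over the 18 DMSO libraries were found among those of 10752 other genes, some of which share a CRE. Those nearest to Il4ra -1.2 kb were the shared start of Pign and Relch (Pearson r = 0.931), H2-T24 (0.910) and Milr1 (0.907). Those nearest to Pim1 -1.1 kb were Tnip1 (0.983), Traf1 (0.982) and Slc2a6 (0.982). These are descriptions across libraries that share stimuli and depth.

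In cells given JAK inhibitors, the ranges of UT and IL-4 libraries were apart at the CREs with the strongest IL-4 responses and overlapped at weaker ones. At Pim3 -7.2 kb, the 10 UT libraries of the 6 JAK inhibitors ranged from 23 to 95 (median 43.5) and their 24 IL-4 libraries from 168 to 434 (median 318), so the ranges did not overlap. The 3 UT libraries of the PIM inhibitors ranged from 49 to 67 and their 9 IL-4 libraries from 197 to 417. Filgotinib cells were at 210, 271, 347 and 261 after 30 min, 1 h, 2 h and 4 h of IL-4, Ruxolitinib cells at 294, 291, 434 and 367, and Tofacitinib cells at 208, 284, 424 and 434. All of these lay above every UT library of the JAK inhibitors. At Jak2 -11.1 kb, the JAK inhibitor libraries ranged from 72 to 121 in UT and from 176 to 496 after IL-4, again without overlap, and the lowest IL-4 value was that of Filgotinib at 4 h. At Jak2 +0.8 kb they ranged from 223 to 334 in UT and from 250 to 471 after IL-4, and overlapped. The PIM inhibitor libraries did not overlap there, at 259 to 296 in UT and 334 to 482 after IL-4. BMS911543 cells were at 303, 297, 417 and 348 there, against a UT mean of 290, and Filgotinib cells at 250 after 30 min and 304 after 4 h. The UT and IL-4 ranges of the JAK inhibitors overlapped as well at Jak2 -23.5 kb (2 to 30 and 6 to 65), Jak2 -14.6 kb (5 to 32 and 11 to 79), Pim1 +20.9 kb (41 to 105 and 58 to 137) and Pim3 -24.6 kb (8 to 22 and 8 to 85).

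The response of each CKI was then described as its mean log2 level over the 4 times minus its UT level. For 53 CKIs with the needed IL-4 libraries, Pim3 -7.2 kb was above 0 in 53, from 1.37 in Bafetinib to 3.42 in Pimasertib with a median of 2.66, and DMSO was at 3.52. Its values in the JAK inhibitors were 1.94 in BMS911543, 2.34 in Momelotinib, 2.63 in Filgotinib, 2.87 in Tofacitinib, 2.90 in Ruxolitinib and 3.11 in Pacritinib, and in the PIM inhibitors 2.64 in AZD1208 and 1.94 in SGI1776. Jak2 -11.1 kb was likewise above 0 in 53 of 53, from 0.85 in Afatinib to 2.67 in Refametinib, with DMSO at 2.87. Jak2 +0.8 kb ranged from 0.03 in PH797804 to 1.16 in GSK461364 (median 0.67, DMSO 1.07), and the lowest of the JAK inhibitors were Filgotinib at 0.21 and BMS911543 at 0.22. Jak2 -23.5 kb was above 0 in 45 of 53, and was at -0.11 in Momelotinib and -0.05 in AZD1208. Filgotinib was the lowest of the 53 at Pim1 +20.9 kb (-0.18) and at Jak2 -14.6 kb (0.06). Il13ra1 -10.8 kb was below 0 in 51 of 53 CKIs, with a median of -0.77 and DMSO at -1.72. The DMSO libraries also had the higher contrast, and how far that moves these values was not tested. Filgotinib and BMS911543 had medians of 1120000 and 1130000 estimated reads per library, against 2840000 to 4290000 in the other JAK inhibitors. The part of depth in their low values was not tested.

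After LPS, Tyk2 -4.1 kb was above 0 in 52 of 52 CKIs, from 1.33 in Omipalisib to 3.39 in Refametinib (median 2.46, DMSO 3.64), and the JAK inhibitors lay from 2.20 in Filgotinib to 3.35 in Tofacitinib. Jak2 +0.8 kb was above 0 in 52 of 52, with the lowest value, 0.13, in PH797804, a p38 inhibitor, a median of 1.43 and DMSO at 2.34. Pim1 -1.1 kb was above 0 in 51 of 52 (median 0.81, DMSO 1.16), the exception being Omipalisib at -0.14. Pim3 -7.2 kb was above 0 in 18 and below 0 in 34 of the 52, with a median of -0.19.

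**Figure D4:**
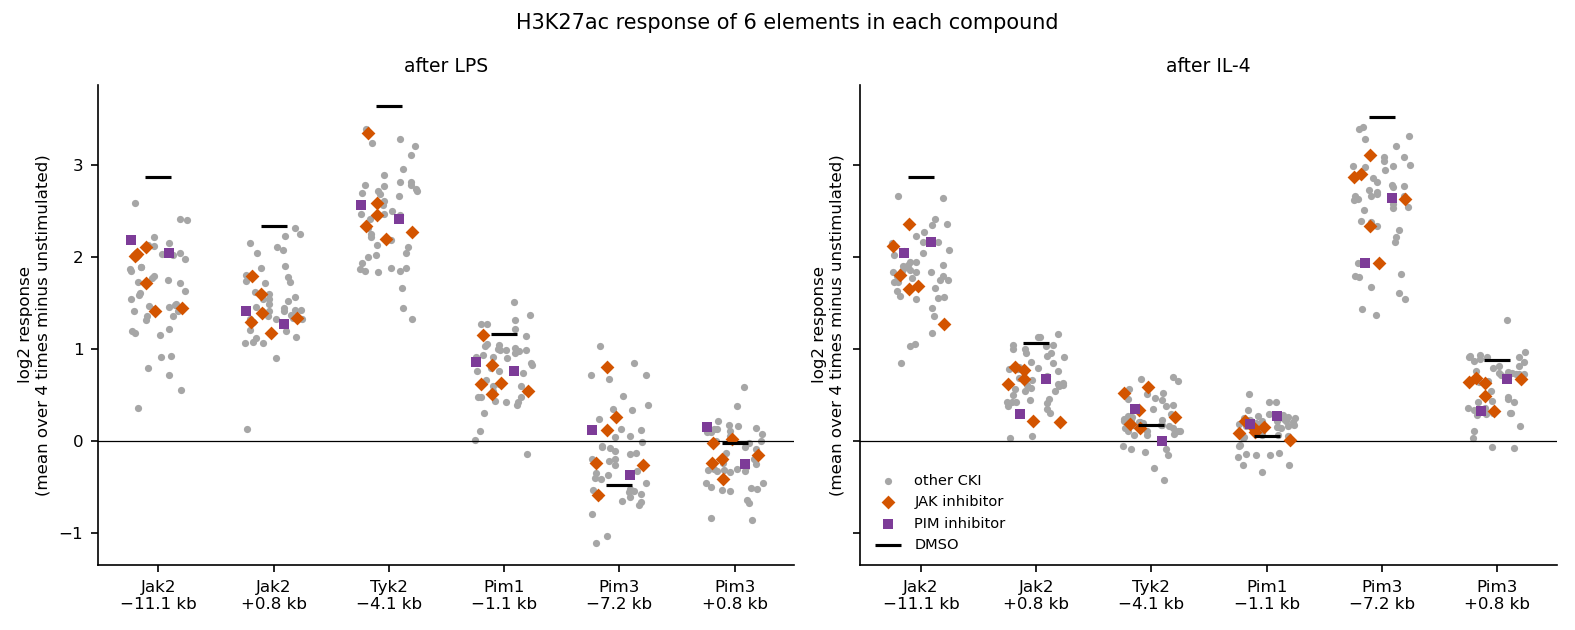
The panels plot the response of 6 CREs (mean log2 level over the 4 times minus the UT level, vertical axis) after LPS (left) and after IL-4 (right), with 1 point per compound and CRE. Orange diamonds are JAK inhibitors, purple squares PIM inhibitors, grey points other CKIs and black bars DMSO, and points are spread sideways only to keep them visible. Every compound is above 0 for Tyk2 -4.1 kb after LPS and for Pim3 -7.2 kb after IL-4, with DMSO above all CKIs in both.

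As classes, the JAK and PIM inhibitors were not distinguished from the other CKIs at any member. The class test compared the mean log2 level over the 4 times, with 1 value per compound, between 6 JAK inhibitors and 46 (LPS) or 47 (IL-4) other CKIs, or between 2 PIM inhibitors and 50 or 51 others. It held the run of columns in which a compound stands in the deposited table (6 runs) as a factor for a possible technical batch, since the labels name none. For JAK inhibitors after LPS, limma called 0 of the 43 members (0% of all CREs), and after IL-4 it called 0 of 43 (0.00507% of all CREs, which is 3 of 59152). For PIM inhibitors it called 0 of 43 after LPS (0% of all CREs) and 0 of 43 after IL-4 (0% of all CREs). At an unadjusted p under 0.05 there were 2, 3, 0 and 2 members in these tests, and 2182, 3220, 151 and 725 CREs in all.

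The 3 members with an unadjusted p under 0.05 for JAK inhibitors after IL-4 were all at Jak2, with lower levels in the class. The log2 difference was -0.12 ± 0.05 at Jak2 +0.8 kb (95% interval -0.22 to -0.02, limma adjusted p 0.826), -0.24 ± 0.11 at Jak2 -14.6 kb (-0.46 to -0.02, 0.887) and -0.35 ± 0.16 at Jak2 -23.5 kb (-0.66 to -0.03, 0.892), so none held after adjustment. Relative to the mean of its own column run, each of the 6 JAK inhibitors was below 0 at Jak2 +0.8 kb, with Filgotinib at -0.28 and BMS911543 at -0.19, both of column run 1, and the other 4 at -0.05 to -0.02. The 6 were also below 0 at Jak2 -14.6 kb, from -0.33 in BMS911543 to -0.08 in Tofacitinib, and 5 of 6 were below 0 at Jak2 -23.5 kb. At Jak2 -11.1 kb the class difference was -0.06 (-0.17 to 0.05). At Pim3 -7.2 kb it was 0.12 (-0.01 to 0.26) and each of the 6 was above 0 relative to its run, from 0.05 in Ruxolitinib to 0.17 in Filgotinib, and at Pim3 +0.8 kb it was 0.09 (-0.03 to 0.20). For PIM inhibitors after IL-4, the interval was -0.21 to 0.25 at Pim3 -7.2 kb and -0.28 to 0.11 at Pim3 +0.8 kb, and after LPS it was -0.39 to 0.31 at Pim1 -1.1 kb. The 2 members with an unadjusted p under 0.05 for PIM inhibitors after IL-4 were Jak2 -23.5 kb at -0.62 (-1.15 to -0.10) and Il13ra1 +17.7 kb at -0.64 (-1.15 to -0.14), each with a limma adjusted p of 1. These intervals bound the average class difference in log2 level at each CRE.

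**Figure D5:**
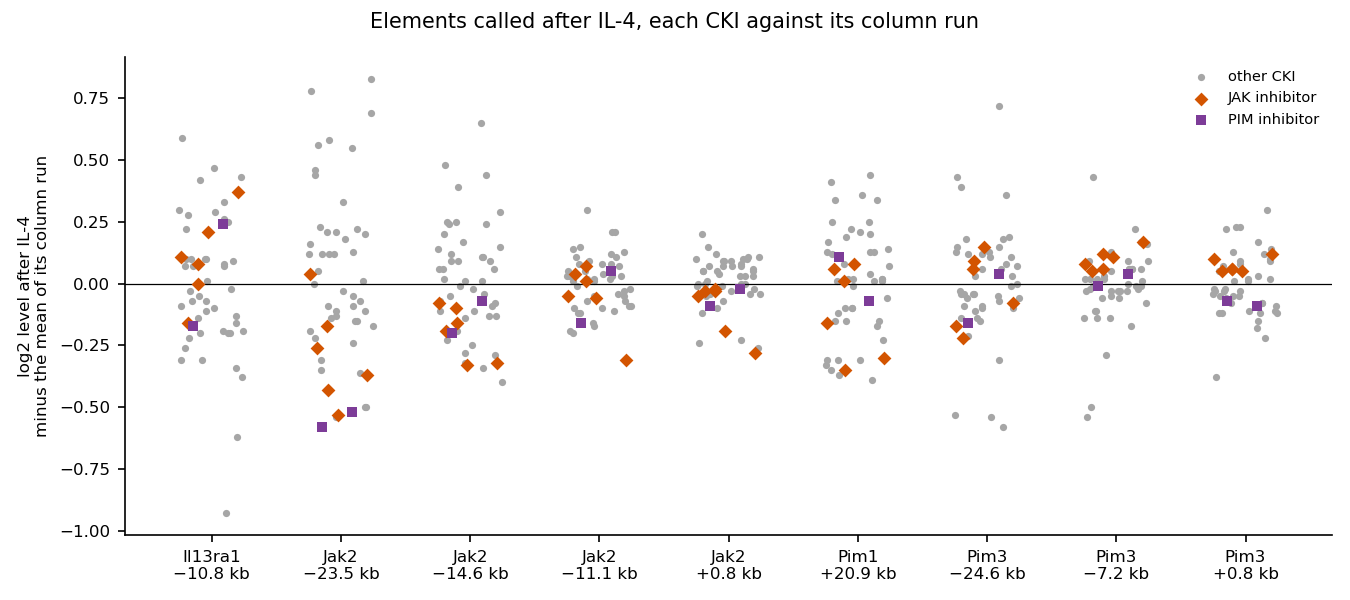
The plot shows the 9 CREs called after IL-4 in DMSO cells (horizontal axis) and, for each CKI, its mean log2 level over the 4 IL-4 times minus the mean of its column run (vertical axis). Orange diamonds are JAK inhibitors, purple squares PIM inhibitors and grey points other CKIs. The JAK inhibitors lie within the range of the other CKIs at most CREs, all below 0 at Jak2 +0.8 kb and all above 0 at Pim3 -7.2 kb.

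Single inhibitors were also set against DMSO, and a CRE was called at an adjusted p under 0.05 with an absolute log2 difference above 0.5. After LPS, 92 of the 344 pairs of member and inhibitor were called, which is 26.7% against 31.0% over all CREs, and after IL-4, 63 were, which is 18.3% against 27.9%. Both shares were below the background. Among those with large differences were Jak3 -15.4 kb, higher by 1.44 to 2.42 in 7 inhibitors after LPS, and Pim3 +14.4 kb, higher by 1.30 to 2.40 in the same 7. Both were near the floor, at 2 to 8 and 2 to 10 in the DMSO LPS libraries. They passed the filter on low values only through CKI libraries, so these calls follow in part from the filter. Pim3 -7.2 kb was higher by 1.39 to 1.82 after LPS in 7 of 8 inhibitors, with JAK inhibitor libraries at 16 to 96 and DMSO LPS libraries at 7 to 30. Jak2 +0.8 kb was lower after LPS in the same number, by log2 differences of -1.03 to -0.73, and Tyk2 -4.1 kb was higher after IL-4 in 8 of 8, by 0.57 to 1.24. Il13ra1 +17.7 kb was lower in 5 inhibitors after LPS, by log2 differences of -1.09 to -0.87, and in 3 after IL-4, by -1.18 to -0.99. Tofacitinib had the median contrast nearest to that of DMSO among the 8 (35.4, range 25.1 to 49.5). It had 0 members and 0.265% of all CREs called after LPS, and 2 members and 5.60% after IL-4. Ruxolitinib and AZD1208 had median contrasts of 33.1 and 32.0. After LPS they had 9 and 11 members and 27.2% and 30.5% of all CREs called. After IL-4, Ruxolitinib had 9.04%, AZD1208 4.93% and Pacritinib 4.82%. The part of contrast in these differences was not tested.

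Set against the other CKIs of its column run, a comparison without DMSO, 6 pairs were called after LPS (1.74% of pairs, 3.34% over all CREs) and 1 after IL-4 (0.291% of pairs, 0.416% over all CREs). After LPS, BMS911543 was higher at Jak2 -11.1 kb by 0.63. The other 5 were in Pacritinib, which was lower at Il13ra1 -4.4 kb by a log2 difference of -0.71 and higher at Jak3 -15.4 kb (1.24), Jak3 -10.7 kb (0.86), Pim3 -7.2 kb (1.14) and Pim3 +14.4 kb (1.44). Of these, Jak3 -15.4 kb and Pim3 +14.4 kb were the CREs near the floor described above. Pacritinib had 23.2% of all CREs called in this comparison. Its run held PH797804, and without that compound 10 pairs were called. The pair after IL-4 was BMS911543 at Pim1 -12.3 kb, with a log2 difference of -0.63.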

How the data were processed

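The deposited values are normalized read counts of H3K27ac ChIP-seq at 59190 CREs in 564 libraries, which the authors rounded to whole numbers, so they were treated as a score and no count model was fitted. Per the study's methods, reads were trimmed, mapped to mm10 with ShortStack, counted around ATAC-seq summits and scaled by a factor per library. Bowtie and SAMtools appear in the submitters' processing notes. CRE widths vary (median 1652 bp), and wider CREs hold more reads, so levels were not compared between CREs. The members, gene lists and tests were chosen with earlier results of these data known.

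CREs were assigned to curated RefSeq starts within 25 kb. Differences were tested in R 4.3.3 with limma 3.58.1 (moderated variances with a mean trend) on log2(value + 5), which understates changes of low values, over CREs with a mean of at least 10. The DMSO courses and the stimulus difference used moderated F tests, an adjusted p of 0.01 and a log2 limit of 1. Classes used an adjusted p of 0.05, and single inhibitors also a log2 limit of 0.5. The tests were checked on simulated data. Named CREs were, for each gene, the one nearest to a start, those called with the largest difference in each course, the one with the smallest p between stimuli, and up to 5 called in each inhibitor test. For likeness, the rule took Il4ra and Pim1. Other CREs named were chosen after their values were seen. The replicate numbers of the DMSO libraries did not pair samples: over 36 pairs of conditions, the deviations of replicates correlated at -0.09 to 0.07. Replicates correlated at 0.960 to 0.982, and no libraries were identical. Column runs are 6 consecutive sets of compounds in the deposited table. Library depth was estimated from the spacing of the values. The 40 bases on each side of a match were read for the printed windows. Alternatives were other pseudocounts, filters, scalings and windows, leaving out each replicate or inhibitor, a replicate block, and, chosen after seeing the data, predicted starts and leaving out PH797804. One gene of the pathway list is not reported here.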

Additional observations from a re-analysis of the deposited data

How the results depend on the processing

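Within 10 kb of a start (20 CREs), 12 were called after LPS, 3 after IL-4 and 14 between the stimuli, and within 50 kb (77 CREs) 36, 15 and 41. Leaving out each DMSO library gave 18 to 23, 8 to 10 and 23 to 26, and the replicate block gave 22, 9 and 25, as without it. The class tests called 0 members in every setting run. Single inhibitors against DMSO gave 11 pairs after LPS and 17 after IL-4 with quantile normalization, and 58 to 65 and 42 to 49 without 1 of the DMSO replicates. Against the column run, quantile normalization gave 0 pairs after LPS, leaving out PH797804 gave 10, and a pseudocount of 20 gave 0 after IL-4. Signs turned in CREs near 0: Jak3 +0.3 kb after IL-4 was at -0.02 to 0.22 without 1 DMSO library (lowest without replicate 2 at 1 h), Jak2 -11.1 kb between the stimuli at -0.52 to 0.03 (highest without LPS replicate 1 at 30 min), and, for JAK inhibitors after IL-4, Il13ra1 -10.8 kb at -0.12 and Pim3 +0.8 kb at -0.03 minus the unstimulated value, and Pim3 -24.6 kb at 0.00 with a wider class and at -0.07 to 0.01 without 1 JAK inhibitor, the highest without Ruxolitinib. Of the named CREs' other values, 1034 kept their call and direction, 8 lost a call and 5 gained one. The cause of these changes was not tested. Each condition had 2 DMSO libraries and most CKIs had 1, which limits the precision.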

Other observations

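Set against the other CKIs of its column run after LPS, PH797804, an inhibitor of p38 MAP kinase, had 20 of 43 members called, 18 of them lower, a share near the 44.5% of all CREs called. Jak2 +0.8 kb was lower by a log2 difference of -1.22 and, of 58 CKIs, PH797804 was the 1 called there. Its libraries held 346000 to 2280000 estimated reads with a contrast of 3.37 to 14.7, and the part of depth in these differences was not tested. After IL-4, PH797804 and X396 were the CKIs called at Pim3 -7.2 kb, both lower, with PH797804 at -0.60.

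Among start-site CREs of other genes, the one most like Tyk2 -0.1 kb over the 18 DMSO libraries was that of Ifi203 (Pearson r = 0.972), followed by Stat5a (0.968), and the one most like Jak2 +0.8 kb was that of N4bp1 (0.985). Il13ra1 +3.2 kb was most like Cd69 (0.983). These pairs were read after the values had been seen, and they describe libraries that share stimuli.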
